A study of Homo sapiens with 24 samples.

Results

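The three-way interaction asks whether the joint action of radiation and CB-839 on RNA levels depended on the genotype of NRF2. It was measured in SAS cells, a human oral squamous cell carcinoma line, as the radiation by CB-839 interaction in E79Q cells minus the same interaction in WT cells. The interaction within a genotype is the effect of CB-839 in irradiated cells minus its effect in unirradiated cells, on the log2 scale. All 24 libraries of the series enter the contrast, 12 of each genotype, and RNA was counted over 15956 tested genes.

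The groups were SAS-Nrf2E79Q cells and SAS cells with wild-type Nrf2, each given radiation (RT) at 4 Gy after CB-839 at 0.1 µM, radiation alone, CB-839 alone, or neither (labelled Control and called untreated here). CB-839 or vehicle was given for 24 hours before radiation, and RNA of irradiated cells was taken 24 hours after it. No time of RNA harvest is given for unirradiated cells. Their time in the drug may therefore have differed, which cannot be told apart from radiation here. The labels do not say how the E79Q line was made, whether it is 1 clone, or whether the 3 replicates of a group were separate cultures, so p-values measure the spread between these samples, which may be technical. The series text describes the 12 irradiated samples, and whether the 12 unirradiated ones were made with them is not stated.

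NRF2 (gene NFE2L2) is a transcription factor that switches on glutathione, thioredoxin and detoxification genes. KEAP1 holds it low by binding it for degradation, and E79Q changes the stretch of NRF2 that KEAP1 binds. CB-839 keeps cells from turning glutamine into glutamate. Cells short of amino acids raise the transcription factor ATF4, which drives genes for amino acid synthesis, amino acid uptake and tRNA charging. Stress in the endoplasmic reticulum raises chaperones through the unfolded protein response, and part of that response also runs through ATF4. Radiation is known to raise p53 targets and the NF-kB cytokines in carcinoma cells.

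Total counts ran from 14285084 to 23640197 per library, and mitochondrial genes took 1.93% to 3.55% of them. All 16 epithelial and squamous markers were read in all 24 libraries, and their sum ran from 5355 to 5422 CPM (reads of a gene as a share of its library's, with TMM scaling between libraries) in CB-839 E79Q cells, the lowest group, and from 10859 to 11116 CPM in untreated WT cells, the highest. Of the 16 markers of leukocytes, endothelium and fibroblasts, 5 were read in all 24 libraries: VWF at 1.29 to 4.20 CPM, CD14 at 0.197 to 3.55, PDGFRA at 0.0519 to 0.835, PDGFRB at 0.225 to 1.27 and COL1A1 at 2.51 to 29.5, the last in 1 untreated E79Q library. KDR was at 0 in all libraries, and PTPRC, CD3E, LYZ and DCN had at most 1 read in any library. The sum of the 16 ran from 8.60 to 8.92 CPM in RT + CB-839 E79Q cells, 9.08 to 11.6 in RT, 6.27 to 6.73 in CB-839 and 9.51 to 33.6 in untreated ones. In WT cells it ran from 7.35 to 9.30 CPM with RT + CB-839, 9.40 to 13.7 with RT, 7.09 to 8.35 with CB-839 and 13.1 to 14.7 untreated. Libraries also differed in how far their genes departed from the mean of their own group with GC content. The correlation ran from -0.38 to 0.48 and was highest in RT + CB-839 E79Q replicate 2. It does not measure GC differences between groups. The part of these differences in the results below was not tested beyond the values given without 4 such libraries and with GC and length trends removed. The 4 were RT + CB-839 E79Q replicate 2 (0.48), RT + CB-839 WT replicate 1 (0.26), CB-839 WT replicate 3 (0.18) and untreated E79Q replicate 1 (0.17). All had positive correlations. RT + CB-839 E79Q replicate 1, with the lowest correlation (-0.38), was kept in that fit.

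Of the 15956 genes, 176 (1.1%) had a three-way value that differed from 0 at an adjusted p under 0.05 (edgeR's quasi-likelihood test, Benjamini-Hochberg over all tested genes). A gene is called lower here where the value was negative and higher where it was positive. There were 124 lower genes (0.777% of those tested) with a median of -0.83, and 52 higher genes (0.326%) with a median of 0.59. The absolute value was over 1 in 48 of the lower genes and 6 of the higher genes. Across all tested genes the median three-way value was -0.03 and the median standard error 0.24. The contrast carries the error of 8 group means. At an unadjusted p, 1866 genes were under 0.05.

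The split depended on the processing. With GC content and length trends removed, 293 genes were higher and 221 lower, and without 4 libraries with GC-related deviation 128 were higher and 222 lower. DESeq2 gave 139 higher and 166 lower, and the fit with no filter on low counts gave 91 higher and 131 lower. The count of higher genes was 122 without RT + CB-839 E79Q replicate 1, 31 without untreated WT replicate 1, 33 without RT WT replicate 1 and 32 without RT + CB-839 WT replicate 2. Of the 124 lower genes, 118 were also called lower with the trends removed and 120 without the 4 libraries. Of the 52 higher genes, these fits called 52 and 48.

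Within E79Q cells the radiation by CB-839 interaction was called in 2312 genes (14.5%), of which 1250 were higher (7.83%) and 1062 lower (6.66%). In WT cells it was called in 641 genes (4.02%), with 439 higher (2.75%) and 202 lower (1.27%). Both counts moved with single libraries. The E79Q count was 829 without untreated E79Q replicate 1, 1382 without RT E79Q replicate 1, 1382 without RT E79Q replicate 2, 1017 without CB-839 E79Q replicate 2, 1195 without RT + CB-839 E79Q replicate 2 and 4289 without RT + CB-839 E79Q replicate 1. The WT count was 365 without untreated WT replicate 1, 423 without RT WT replicate 1, 411 without RT WT replicate 3, 371 without CB-839 WT replicate 2, 372 without RT + CB-839 WT replicate 1 and 1766 without RT + CB-839 E79Q replicate 2. These counts do not show how the genotypes differ, which only the three-way value tests.

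The three-way value is the difference of these interactions, so they describe the called genes and are no separate evidence. Among the 124 lower genes, 58 had a WT interaction called higher and an E79Q interaction not called, 39 had an E79Q interaction called lower and a WT interaction not called, and 16 had both. Among the 52 higher genes, 31 had an E79Q interaction called higher alone, 12 a WT interaction called lower alone, and 2 had both. The gene groups below differ in which of these they show.

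**Figure D1:**
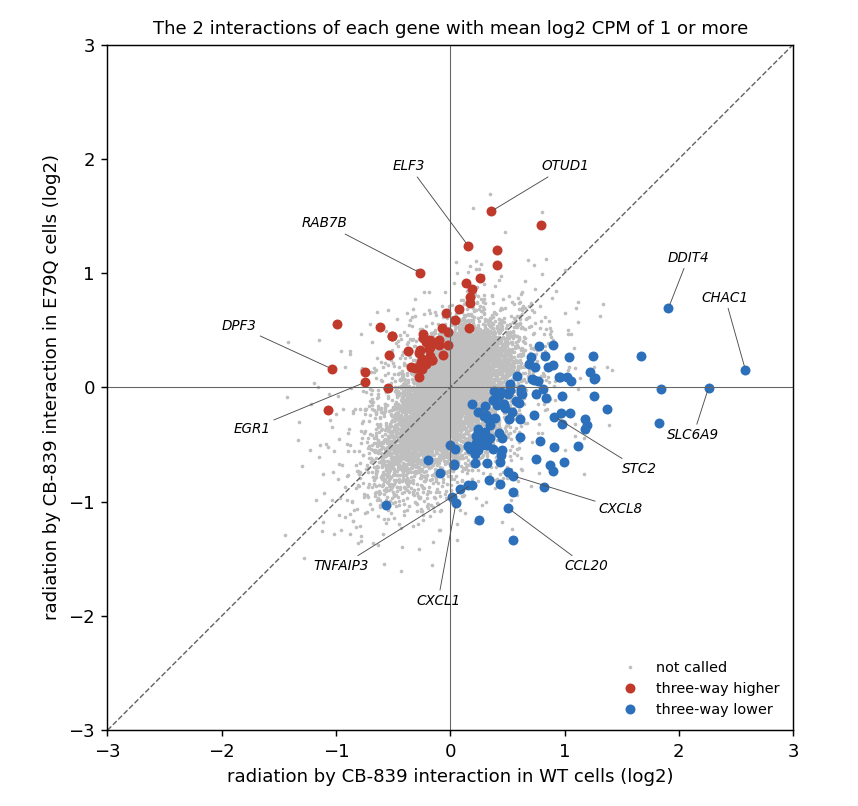
Radiation by CB-839 interaction of each gene in WT cells (x axis, log2) and E79Q cells (y axis, log2), for genes with a mean log2 CPM of at least 1. Points are genes, and the dashed line marks equal interactions. The 2 not-called genes beyond 3 are left out. The lower genes spread to the right, where CHAC1 had a WT interaction of 2.58, and downward, where CCL20 had an E79Q interaction of -1.06.

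In the 124 lower genes the median log2 fold change of CB-839 was 0.22 in irradiated E79Q cells and 0.47 in unirradiated E79Q cells. In WT cells it was 0.10 in irradiated cells and -0.49 in unirradiated cells. Over all tested genes these medians were between -0.02 and 0.02. In unirradiated cells 116 of the 124 went up with CB-839 in E79Q and 111 went down in WT, counted by sign alone. Within WT the CB-839 group had the lowest mean for 100 of the 124 genes (80.6%), against 25.4% of all tested genes. Within E79Q the untreated group had the lowest mean, also for 100 of the 124, against 28.0% of all tested genes. The sign of a three-way value favours some groups as the lowest, so these shares are descriptions.

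The ATF4 and amino acid response list had the lowest median of the 34 lists. Of its 24 tested members, 8 were called lower, or 33.3% against the 0.777% of all genes called lower. Its median three-way value was -0.86, against -0.03 over all tested genes, and 20 of 24 members were below 0. The WT interaction of its members had a median of 0.98 and was called higher in 16, against 2.75% of all genes. The E79Q interaction had a median of 0.15, with 4 called higher and 2 lower, against 7.83% and 6.66% of all genes. The median CB-839 effect over the list was a log2 fold change of 0.44 in irradiated E79Q cells and 0.47 in unirradiated E79Q cells, against 0.15 in irradiated WT cells and -0.95 in unirradiated WT cells.

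CHAC1 (chr15:40952962-40956519, GRCh38), which degrades glutathione and is a target of ATF4, had the largest negative value among protein-coding genes with a mean log2 CPM of at least 1. It had 24.2, 31.4 and 30.1 CPM in RT + CB-839 E79Q libraries, 15.6, 17.6 and 17 in RT, 18.9, 17.1 and 16.4 in CB-839 and 12.6, 11.3 and 10.0 in untreated ones. WT cells had 19.6, 16.6 and 14.3 CPM with RT + CB-839, 13.2, 14.2 and 11.4 with RT, 2.6, 4.8 and 4.5 with CB-839 and 18.4, 17.7 and 18.7 untreated. The 3 WT libraries with CB-839 alone were the lowest of all 24. The E79Q interaction was 0.16 ± 0.19 (log2 ± SE) and the WT interaction 2.58 ± 0.21, a three-way value of -2.43 (SE 0.28, adjusted p = 2.04e-05).

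STC2 (chr5:173314713-173329503), a secreted glycoprotein hormone induced by stress, had the smallest p of all genes. It had 332, 338 and 354 CPM in RT + CB-839 E79Q libraries, 319.8, 332 and 337 in RT, 252, 239 and 243 in CB-839 and 197, 199 and 198 in untreated ones. In WT libraries it had 226, 223 and 213 CPM with RT + CB-839, 230.4, 232 and 224 with RT, 100.1, 104 and 109.8 with CB-839 and 202, 204 and 207 untreated. The untreated libraries of both genotypes lay between 197 and 207 CPM, with those given CB-839 alone all above this range in E79Q and all below it in WT. Its three-way value was -1.17 (SE 0.09, adjusted p = 1.06e-08).

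TRIB3 (chr20:362835-397559), a pseudokinase induced by ATF4 that feeds back on it, averaged 119.9 ± 12.5 CPM in RT + CB-839 E79Q cells, 66.4 ± 3.09 in RT, 96.5 ± 0.146 in CB-839 and 64.5 ± 5.63 in untreated cells (SD, n = 3 each). WT cells averaged 83.7 ± 3.56 CPM with RT + CB-839, 67.3 ± 1.54 with RT, 45.5 ± 2.44 with CB-839 and 87.1 ± 2.72 untreated. Between the genotypes the three-way value was -0.98 (SE 0.14, adjusted p = 0.000135). SESN2, a leucine sensor that restrains mTORC1, had -1.19 (SE 0.18, adjusted p = 0.000444), and GDF15, a stress cytokine, had -1.39 (SE 0.24, adjusted p = 0.00158).

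ATF4, the transcription factor itself, averaged 318 ± 25.7 CPM in RT + CB-839 E79Q cells, 240.3 ± 5.38 in RT, 293 ± 20.1 in CB-839 and 286 ± 15.1 in untreated cells, against 235 ± 12.3 with RT + CB-839, 263 ± 8.81 with RT, 184 ± 2.11 with CB-839 and 384 ± 21.6 untreated in WT cells. The CB-839 effect in unirradiated cells was 0.04 in E79Q and -1.06 in WT. The three-way value was -0.53 (SE 0.12, adjusted p = 0.0216), and the call was lost without untreated WT replicate 2, CB-839 WT replicate 2 or CB-839 E79Q replicate 1, where the adjusted p reached 0.0651. DDIT3 (CHOP), its partner in the stress response, had -0.74 (SE 0.27, adjusted p = 0.246) and was not called.

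DDIT4, an mTORC1 inhibitor induced by several stresses, stood apart in its levels. Untreated WT libraries had 104, 108 and 111 CPM, above the range of 13.2 to 29.5 CPM of the other 21 libraries. CB-839 E79Q libraries had 25.5, 19.4 and 25.4 CPM and untreated E79Q libraries 22.3, 23.6 and 22.9. Its three-way value of -1.22 (SE 0.19, adjusted p = 0.000569) was the difference of an E79Q interaction of 0.69 and a WT interaction of 1.91.

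**Figure D2:**
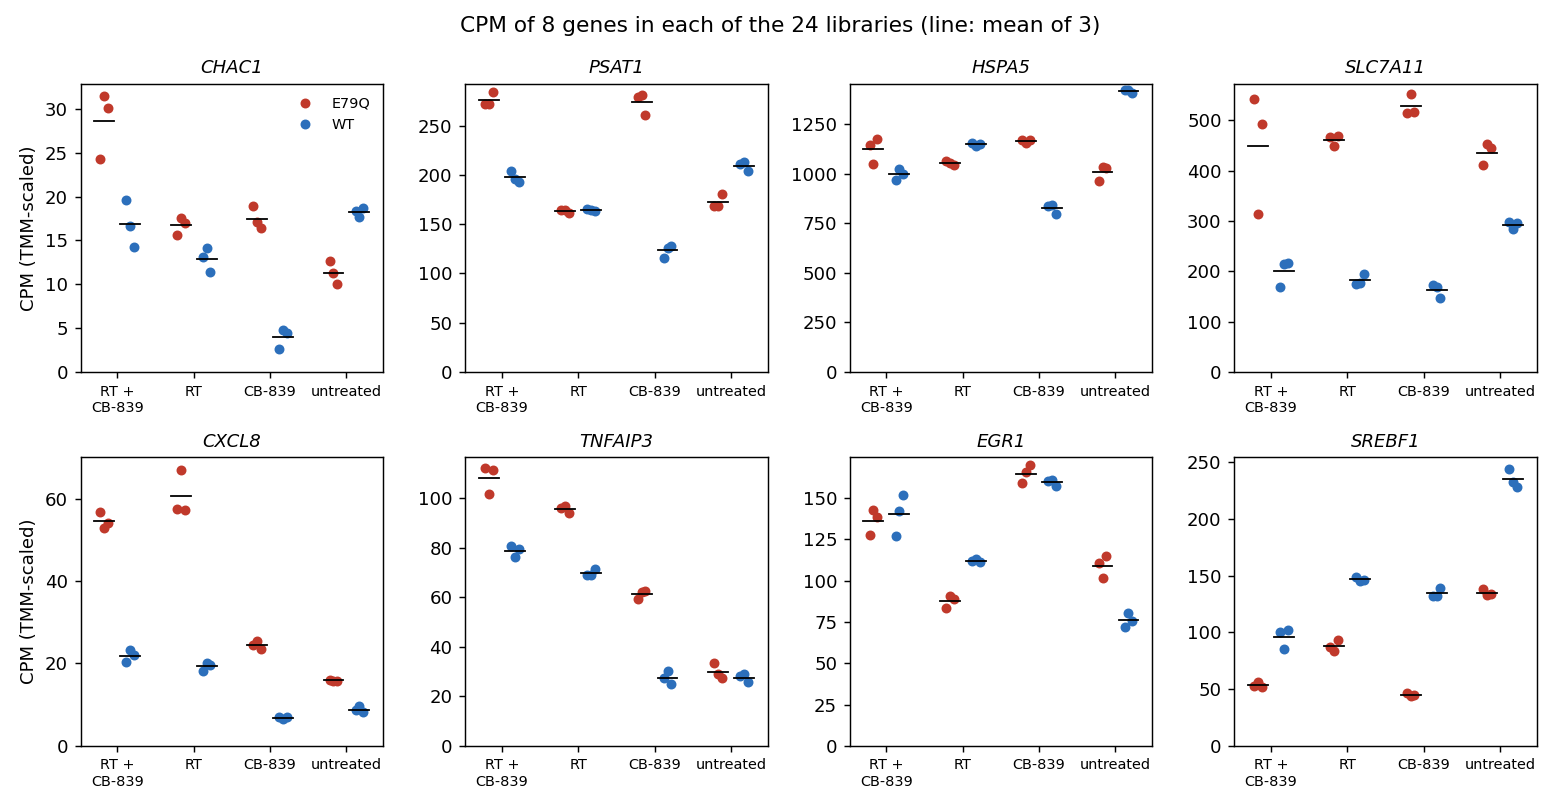
CPM (y axis, TMM-scaled) of 8 genes by treatment (x axis), with E79Q libraries in red left of WT libraries in blue. Each point is 1 library and each line the mean of 3. CHAC1 and PSAT1 were lowest in WT cells with CB-839 alone, at 2.60 to 4.80 and 116 to 128 CPM, while CXCL8 and TNFAIP3 were highest in irradiated E79Q cells.

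Aminoacyl-tRNA synthetases, which load amino acids onto tRNAs, were called lower in 7 of 20 cytosolic members (35%, against 0.777% of all genes). The list median was -0.26, the E79Q interaction was called higher in 5 members, and the WT interaction in 7. Over all genes these interactions were called higher in 7.83% and 2.75%. GARS (glycine) had 308, 309 and 300.1 CPM in CB-839 E79Q libraries and 238, 236 and 241 in untreated ones. In WT it had 189, 192 and 188 CPM with CB-839 and 270.1, 277 and 272 untreated, so the drug separated the groups in both genotypes and in opposite directions. With radiation, GARS had 315, 281 and 316 CPM with CB-839 and 246, 249 and 243 without it in E79Q cells, and 238, 258 and 259.9 CPM with CB-839 and 239, 235 and 230.0 without it in WT cells. This gave a three-way value of -0.68 (SE 0.09, adjusted p = 0.000113).

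The other called synthetases were CARS with -0.77, WARS with -0.56, MARS with -0.55, SARS with -0.49, YARS with -0.48 and AARS with -0.42, at adjusted p-values of 0.00229, 0.00263, 0.00573, 0.00703, 0.018 and 0.0243 (edgeR). The WT interaction of the 7 ran from 0.58 to 1.04 and the E79Q interaction from -0.05 to 0.36. Leaving out 1 library ended the call of AARS in 9 of 24 fits, with an adjusted p of up to 0.0801 without CB-839 WT replicate 2. YARS lost its call without CB-839 WT replicate 2, where the adjusted p was 0.0609, and without CB-839 E79Q replicate 1. MARS overlaps DDIT3 on the opposite strand, and reads shared by them cannot be told apart since no strand setting is given.

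Serine and one-carbon genes were called lower in 3 of 12 (25%, against 0.777% of all genes). PSAT1 (chr9:78297143-78330093), the transaminase of serine synthesis, had 272, 272 and 284 CPM in RT + CB-839 E79Q libraries, 164, 165 and 161 in RT, 279, 281 and 261 in CB-839 and 169, 168 and 181 in untreated ones. WT libraries had 204, 196 and 193 CPM with RT + CB-839, 166, 165 and 164 with RT, 116, 126 and 128 with CB-839 and 211, 213 and 204 untreated. CB-839 raised it in E79Q cells with radiation (log2 0.76) and without (0.66), whereas in WT cells the drug effect was 0.26 with radiation and -0.76 without. Its three-way value was -0.93 (SE 0.10, adjusted p = 2.96e-06).

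PHGDH, which starts serine synthesis, had -0.71 (SE 0.13, adjusted p = 0.00337). ALDH1L2, a mitochondrial folate enzyme, had -1.63 (SE 0.23, adjusted p = 0.000174). Its CPM was 52.5, 31.9 and 51.6 in RT + CB-839 E79Q libraries and 52.7, 53.1 and 52.6 in CB-839 E79Q libraries, so that replicate 2 of the first group, the library with the highest GC-related deviation, stood below its group. Without single libraries the adjusted p of ALDH1L2 reached at most 0.000617.

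Amino acid transporters were called lower in 3 of 15 (20%, against 0.777% of all genes). SLC6A9, the glycine transporter GLYT1, had 11.8, 9.84 and 10.3 CPM in CB-839 E79Q libraries and 3.81, 5.58 and 5.26 in untreated ones, against 2.43, 2.12 and 2.87 CPM in CB-839 WT libraries and 10.6, 10.0 and 9.87 in untreated ones. After radiation it had 11.9, 13.5 and 12.4 CPM with CB-839 and 5.98, 6.07 and 5.34 without in E79Q cells, and 9.81, 7.77 and 7.81 CPM with CB-839 and 6.74, 6.35 and 8.79 without in WT cells. The WT libraries with CB-839 alone did not overlap any other group. Between the genotypes the three-way value was -2.26 (SE 0.29, adjusted p = 5.07e-05). SLC1A5 (ASCT2), the main glutamine importer, had -0.82 (SE 0.11, adjusted p = 5.07e-05). SLC1A4, a neutral amino acid transporter, had -1.56 (SE 0.39, adjusted p = 0.0403) at 2.23 to 15.4 CPM, and lost its call in 15 of 24 fits without 1 library, with an adjusted p of up to 0.103 without RT E79Q replicate 3.

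Enzymes of glutamine and glutamate metabolism moved both ways, with 2 of 16 lower and 1 higher. The 3 calls were 18.8% of the list, against 1.1% of all genes. ASNS, which makes asparagine from glutamine and is on the ATF4 list too, had -2.14 (SE 0.46, adjusted p = 0.0143), at 0.8 to 5.04 CPM in all libraries. GPT2, a mitochondrial transaminase that uses glutamate, had -0.86 (SE 0.15, adjusted p = 0.00187). GLUL, which makes glutamine from glutamate, had 0.39 (SE 0.10, adjusted p = 0.043) and lost its call in 17 of 24 fits without 1 library, with an adjusted p of up to 0.11 without CB-839 E79Q replicate 2.

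Promoter stretches of lower genes are shown because several known ATF4 targets carry an amino acid response element there. The element was searched as TGATGNAAN on both strands in the 250 bases before the RefSeq start, in the promoters of GRCh38.p14 that matched 10672 of the tested genes. It was present in 5 of the 85 matched lower genes (5.88%), 1 of the 40 matched higher genes (2.5%) and 147 of all 10672 (1.38%). Of the 20 matched members of the ATF4 list, 3 held it, among them ASNS and CHAC1. HERPUD1, printed as well, is on the unfolded protein response list and not on the ATF4 list. The capitals mark the match, which reads along the gene in ASNS and on the opposite strand in CHAC1 and HERPUD1. A match describes the sequence and is not a site shown to be bound.
ASNS: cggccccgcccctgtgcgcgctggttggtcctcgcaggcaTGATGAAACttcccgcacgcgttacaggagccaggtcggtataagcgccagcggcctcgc
CHAC1: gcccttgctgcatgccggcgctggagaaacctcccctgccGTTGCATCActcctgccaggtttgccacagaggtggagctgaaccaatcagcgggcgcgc
HERPUD1: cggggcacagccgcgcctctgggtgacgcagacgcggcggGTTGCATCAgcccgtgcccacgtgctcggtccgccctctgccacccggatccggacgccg
The printed stretches lie at chr7:97872417-97872516 on the minus strand for ASNS, chr15:40953221-40953320 on the plus strand for CHAC1 and chr16:56931925-56932024 on the plus strand for HERPUD1, and the match begins 68, 210 and 177 bases before the RefSeq start. That start differs from the one in the deposited table: by the deposited coordinates the ASNS and CHAC1 stretches lie inside the gene, and the HERPUD1 stretch lies before it. The antioxidant response element that NRF2 binds was searched as TGACNNNGC. It was in 11.8% of matched lower genes, 17.5% of matched higher genes and 12.0% of all matched genes. GCLM, an NRF2 target called lower, held a match that begins 34 bases before its RefSeq start, on the strand opposite to the gene.
GCLM: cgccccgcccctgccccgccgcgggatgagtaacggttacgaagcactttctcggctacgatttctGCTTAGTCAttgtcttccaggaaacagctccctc
This stretch lies at chr1:93909431-93909530 on the minus strand and spans the start of the gene as deposited.

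Genes of the unfolded protein response and folding in the endoplasmic reticulum were called lower in 4 of 21 (19%, against 0.777% of all genes). The list median was -0.29, with 19 of 21 below 0. HSPA5 (BiP), the main chaperone of this compartment, had 1143, 1048 and 1174 CPM in RT + CB-839 E79Q libraries, 1064, 1054 and 1041 in RT, 1168, 1154 and 1168 in CB-839 and 963, 1033 and 1029 in untreated ones. The WT libraries had 969.7, 1024 and 998 CPM with RT + CB-839, 1152, 1139 and 1149 with RT, 837, 839.6 and 797 with CB-839 and 1419, 1422 and 1404 untreated. The WT libraries with CB-839 alone were the lowest of all 24 and the untreated WT libraries the highest, and all E79Q libraries lay between 963 and 1174 CPM. The three-way value was -0.69 (SE 0.08, adjusted p = 2.14e-05). HERPUD1, which aids the removal of misfolded proteins, had -1.0 (SE 0.14, adjusted p = 0.000158), XBP1, a transcription factor of the response, had -0.86 (SE 0.16, adjusted p = 0.00453), and EDEM1, which marks misfolded glycoproteins, had -0.61 (SE 0.12, adjusted p = 0.00788).

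**Figure D3:**
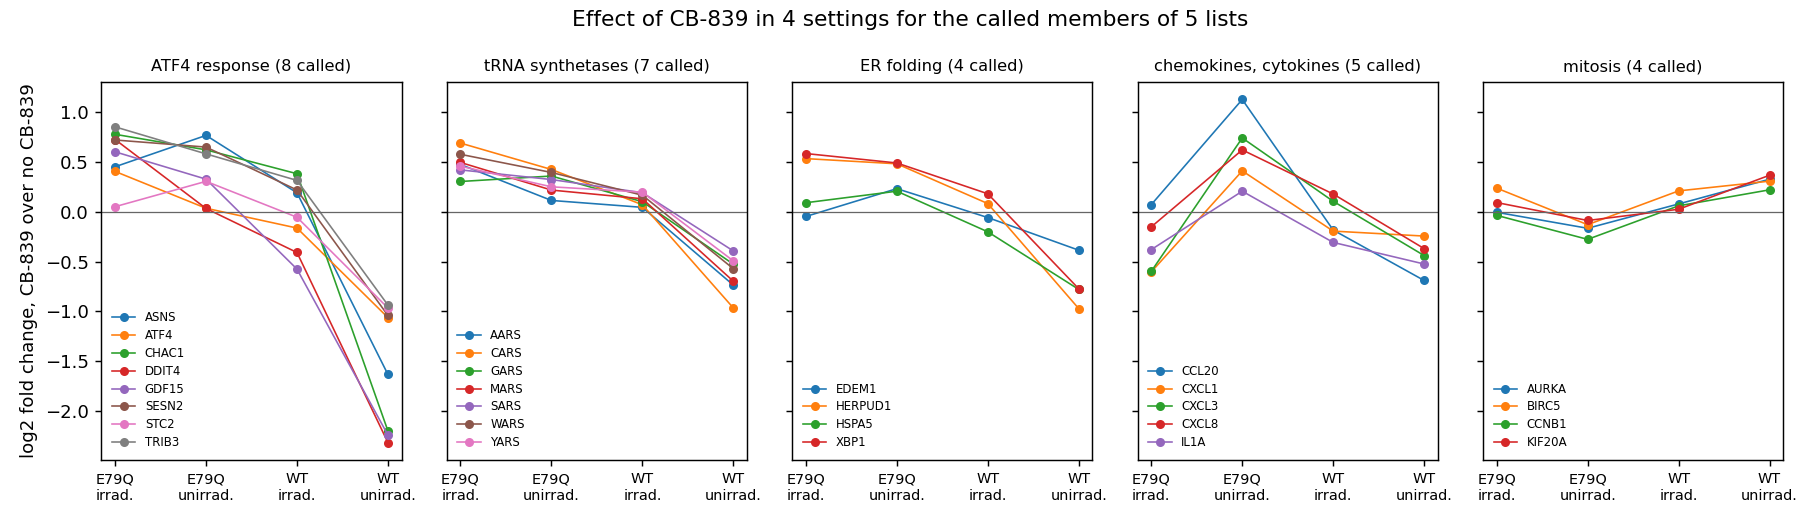
Log2 fold change of CB-839 over no CB-839 (y axis) in irradiated E79Q, unirradiated E79Q, irradiated WT and unirradiated WT cells (x axis), for the called members of 5 lists. Each line joins the fitted values of 1 gene. In unirradiated WT cells CHAC1 stood at -2.20 and HSPA5 at -0.78, while CCL20 peaked in unirradiated E79Q cells at 1.13.

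Of the NRF2 target lists, glutathione and thioredoxin genes were called lower in 2 of 14 (14.3%, against 0.777% of all genes), with a median of -0.12 and 11 of 14 below 0. Detoxification, heme and iron genes were called lower in 1 of 26 (3.85%), with a median of -0.27 and 23 of 26 below 0. SLC7A11, the cystine importer, is also a target of ATF4. It had 541, 314 and 493 CPM in RT + CB-839 E79Q libraries, 466, 449.6 and 469 in RT, 514, 552 and 516 in CB-839 and 410.2, 453 and 445 in untreated ones. In WT libraries it had 169, 215 and 217 CPM with RT + CB-839, 175, 177 and 195 with RT, 174, 169 and 147 with CB-839 and 299, 284 and 296 untreated. All E79Q libraries were above all WT libraries, and the lowest was RT + CB-839 replicate 2. The three-way value of -1.29 (SE 0.23, adjusted p = 0.00268) ran from -1.44 to -1.09 without single libraries, with an adjusted p of at most 0.00795.

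GCLM, the modifier chain of glutamate-cysteine ligase, had -0.48 (SE 0.10, adjusted p = 0.0136), and an adjusted p of 0.13 with GC and length trends removed, which ended the call. ABCC3, an efflux pump, had -1.03 (SE 0.21, adjusted p = 0.00678). AKR1C1, a reductase much used as an NRF2 marker, averaged 93.6 ± 4.41 CPM in RT + CB-839 E79Q cells, 138 ± 8.67 in RT, 48.9 ± 3.68 in CB-839 and 58.1 ± 3.22 in untreated cells, against 21.9 ± 0.912 with RT + CB-839, 12.4 ± 0.803 with RT, 10.2 ± 1.73 with CB-839 and 7.83 ± 1.16 untreated in WT cells. It had -0.73 (SE 0.19, adjusted p = 0.0623) and was not called.

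NQO1, TXNRD1 and GCLC were not called either, with -0.10 (SE 0.13, adjusted p = 0.832), -0.32 (SE 0.09, adjusted p = 0.0924) and -0.34 (SE 0.14, adjusted p = 0.322). NFE2L2 had -0.32 (SE 0.13, adjusted p = 0.311) and KEAP1 0.27 (SE 0.13, adjusted p = 0.433). NQO1 averaged 755 ± 77.3 CPM in RT + CB-839 E79Q cells and 399.6 ± 14.3 in RT + CB-839 WT cells, and 587 ± 22.1 and 354 ± 3.06 in untreated cells. No member of the NADPH list (10 tested) or the NRF2 regulator list (11 tested) was called by edgeR: at an unadjusted p under 0.05 there were 0 and 3 members, DESeq2 called 0 and 1, and limma-voom 0 and 0.

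Of 28 p53 targets, 2 were called lower (7.14%, against 0.777% of all genes). CDKN1A (p21), which stops the cell cycle, had 132, 158 and 146 CPM in RT + CB-839 E79Q libraries, 102, 110.0 and 98.3 in RT, 64.8, 60.2 and 62.8 in CB-839 and 44.4, 36.4 and 33.8 in untreated ones. WT libraries had 93, 89.9 and 84 CPM with RT + CB-839, 89.3, 91.6 and 94 with RT, 26.3, 25.7 and 31.2 with CB-839 and 58.1, 55.1 and 54.4 untreated. Irradiated libraries were above their unirradiated counterparts in all 4 pairs of groups, and the WT libraries with CB-839 alone were the lowest of all 24. This gave a three-way value of -1.19 (SE 0.17, adjusted p = 0.00013). BBC3 (PUMA), which promotes apoptosis and is induced by other stresses too, had -1.86 (SE 0.36, adjusted p = 0.00482) at 1.32 to 5.87 CPM. MDM2, another p53 target, had -0.10 (SE 0.17, adjusted p = 0.87) and was not called. The list median was -0.05.

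Glycolysis and hypoxia genes were called lower in 2 of 28 (7.14%, against 0.777% of all genes), with a median of -0.04. NDRG1, induced by low oxygen and by stress, averaged 37.7 ± 2.22 CPM in CB-839 E79Q cells and 28.5 ± 2.03 in untreated ones, against 28.2 ± 2.76 CPM in CB-839 WT cells and 79.4 ± 1.57 in untreated ones. Its three-way value was -1.33 (SE 0.16, adjusted p = 2.87e-05). VEGFA, the vessel growth factor, had -0.71 (SE 0.12, adjusted p = 0.000974).

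Of 16 tested myeloid chemokines and cytokines, 5 were called lower (31.2%, against 0.777% of all genes), with a median of -0.45. Here the E79Q interaction had a median of -0.35 and was called lower in 7 members and higher in 1. The WT interaction had a median of 0.15 and was called higher in 2. Over all genes the E79Q interaction was called lower in 6.66% and higher in 7.83%, and the WT interaction higher in 2.75%. In the 5 called members the CB-839 effect ran from -0.60 to 0.07 in irradiated E79Q cells and from 0.21 to 1.13 in unirradiated E79Q cells, against -0.31 to 0.18 in irradiated WT cells and -0.69 to -0.24 in unirradiated WT cells.

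CXCL8 (chr4:73740506-73743716), the main neutrophil chemokine, had 56.8, 53 and 54 CPM in RT + CB-839 E79Q libraries, 57.7, 67.1 and 57.2 in RT, 24.4, 25.3 and 23.5 in CB-839 and 16.1, 15.7 and 15.8 in untreated ones. The WT libraries had 20.3, 23.3 and 22.1 CPM with RT + CB-839, 18.1, 20.2 and 19.7 with RT, 7.0, 6.46 and 6.98 with CB-839 and 8.74, 9.57 and 8.11 untreated. CB-839 libraries were above untreated ones in E79Q and below them in WT. After radiation they were below the libraries without the drug in E79Q and above them in WT. The ranges did not overlap, but the nearest libraries differed by under 1 CPM, and the drug effect in irradiated cells did not pass the test in either genotype. The E79Q interaction was -0.77 ± 0.11 (log2 ± SE), the WT interaction 0.55 ± 0.13 and the three-way value -1.32 (SE 0.17, adjusted p = 4.13e-05).

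CCL20 (chr2:227805739-227817564), which draws CCR6-bearing lymphocytes and dendritic cells, had 33.7, 26.3 and 29.1 CPM in RT + CB-839 E79Q libraries, 29.9, 26.9 and 27.6 in RT, 22.7, 20.2 and 20.9 in CB-839 and 9.74, 10.2 and 9.23 in untreated ones. In WT libraries it had 15.2, 17.7 and 18.2 CPM with RT + CB-839, 16.9, 22.1 and 19.1 with RT, 6.15, 7.72 and 7.49 with CB-839 and 11.9, 10.4 and 12.1 untreated. In irradiated cells the libraries with and without CB-839 overlapped in both genotypes, and in unirradiated cells they did not. Between the genotypes the three-way value was -1.56 (SE 0.22, adjusted p = 0.000158).

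CXCL1, another neutrophil chemokine, had 77.6, 83.5 and 79.9 CPM in RT + CB-839 E79Q libraries and 124, 128 and 115 in RT ones, against 61, 69.4 and 57.5 CPM in RT + CB-839 WT libraries and 69.8, 77.2 and 67.9 in RT ones. CB-839 lowered it after radiation in E79Q cells (log2 -0.60), whereas the WT libraries overlapped. The three-way value was -1.06 (SE 0.20, adjusted p = 0.00308), with an E79Q interaction of -1.01 and a WT interaction of 0.05. CXCL3 had -1.88 (SE 0.39, adjusted p = 0.00922) at 0.788 to 10.0 CPM. IL1A had -0.80 (SE 0.18, adjusted p = 0.0227), and lost its call in 7 of 24 fits without 1 library, with an adjusted p of up to 0.0591 without untreated WT replicate 2. IL6, CSF1 and CSF2 were not called, with -0.96 (SE 0.31, adjusted p = 0.155), -0.12 (SE 0.22, adjusted p = 0.891) and 0.27 (SE 0.40, adjusted p = 0.855).

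TNFAIP3 (A20), which is induced by NF-kB and shuts it off, was 1 of 2 called lower among 20 NF-kB genes (10%, against 0.777% of all genes). It had 112, 102 and 111 CPM in RT + CB-839 E79Q libraries, 96.1, 96.8 and 93.9 in RT, 59.3, 62 and 62.4 in CB-839 and 33.4, 29.1 and 27.5 in untreated ones. WT libraries had 80.7, 76.1 and 79.6 CPM with RT + CB-839, 69.1, 68.9 and 71.3 with RT, 27.2, 30.2 and 24.8 with CB-839 and 28.2, 28.8 and 25.8 untreated. The CB-839 effect was 1.03 in unirradiated E79Q cells and -0.01 in unirradiated WT cells. This gave a three-way value of -1.04 (SE 0.14, adjusted p = 9.86e-05). ICAM1, an adhesion molecule driven by NF-kB, had -0.55 (SE 0.13, adjusted p = 0.0239) with a WT interaction of 0.52, and lost its call in 8 of 24 fits without 1 library, with an adjusted p of up to 0.0797 without CB-839 WT replicate 2. CD274 (PD-L1), which restrains T cells, had -0.84 (SE 0.23, adjusted p = 0.0802) and was not called.

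EGFR ligands and MAPK feedback genes were called lower in 4 of 19 (21.1%, against 0.777% of all genes). The list median was -0.37, with 17 of 19 below 0. HBEGF, an EGFR ligand, averaged 131 ± 6.4 CPM in RT + CB-839 E79Q cells, 112 ± 4.57 in RT, 82.7 ± 7.6 in CB-839 and 53.5 ± 1.96 in untreated cells, against 80.9 ± 3.93 with RT + CB-839, 72.9 ± 0.035 with RT, 37.9 ± 1.42 with CB-839 and 46 ± 4.3 untreated in WT cells. Its three-way value was -0.83 (SE 0.14, adjusted p = 0.00103), with interactions of opposite sign in E79Q (-0.40) and WT (0.43). PHLDA1 had -0.59 (SE 0.11, adjusted p = 0.00308), SPRY4, which damps the MAPK pathway, had -0.67 (SE 0.15, adjusted p = 0.016), and ERRFI1, which inhibits EGFR, had -0.49 (SE 0.12, adjusted p = 0.0313). ERRFI1 lost its call in 11 of 24 fits without 1 library, with an adjusted p of up to 0.0776 without CB-839 WT replicate 2.

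Matrix genes and secreted inhibitors were called lower in 3 of 29 (10.3%) and 3 of 27 (11.1%), against 0.777% of all genes. The lists share a called gene, so their calls are not all separate. The list medians were -0.04 and -0.07. SERPINB2, an inhibitor of plasminogen activators, had -0.63 (SE 0.11, adjusted p = 0.00216) and LAMB3, a laminin chain of the epithelial base membrane, -0.48 (SE 0.09, adjusted p = 0.00575). LOX, a collagen cross-linker, had -0.79 (SE 0.18, adjusted p = 0.0235), and lost its call in 6 of 24 fits without 1 library, with an adjusted p of up to 0.0582 without CB-839 E79Q replicate 2. MMP14, a membrane collagenase, had -0.41 (SE 0.10, adjusted p = 0.041), and lost it in 17, with an adjusted p of up to 0.123 without CB-839 WT replicate 2. KLF4, a transcription factor of epithelial differentiation, had -1.55 (SE 0.30, adjusted p = 0.00491), and CLDN7, a tight junction protein, -1.53 (SE 0.33, adjusted p = 0.0131). SEL1L3 and F2RL2 were also among the largest negative values, with -1.63 (SE 0.19, adjusted p = 2.04e-05) and -1.65 (SE 0.28, adjusted p = 0.00158).

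In the 52 higher genes the median log2 fold change of CB-839 was 0.05 in irradiated E79Q cells and -0.29 in unirradiated ones, against 0.04 in irradiated WT cells and 0.26 in unirradiated ones. EGR1 (chr5:138465490-138469315), an immediate early transcription factor, had 128, 143 and 139 CPM in RT + CB-839 E79Q libraries, 83.6, 90.7 and 88.9 in RT, 159, 166 and 169.8 in CB-839 and 111, 102 and 115 in untreated ones. In WT libraries it had 127, 142 and 152 CPM with RT + CB-839, 112, 113 and 111 with RT, 160.2, 161 and 157 with CB-839 and 71.8, 80.2 and 75.8 untreated. CB-839 raised it by a log2 of 0.64 with radiation and 0.59 without it in E79Q cells, and by 0.32 and 1.07 in WT cells. The three-way value was 0.79 (SE 0.13, adjusted p = 0.000587). Of the 22 immediate early factors tested, 1 was called higher and 1, KLF4, lower (9.09% called, against 1.1% of all genes). The list median was -0.18, with 15 of 22 below 0, so EGR1 does not stand for its list.

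Mitosis genes were called higher in 4 of 30 (13.3%, against 0.326% of all genes called higher), with a list median of 0.15. KIF20A, a kinesin of cytokinesis, averaged 115 ± 7.41 CPM in RT + CB-839 E79Q cells, 108 ± 2.98 in RT, 122 ± 5.52 in CB-839 and 130.2 ± 1.47 in untreated cells, against 114 ± 3.39 with RT + CB-839, 112 ± 4.37 with RT, 139 ± 4.07 with CB-839 and 108 ± 3.14 untreated in WT cells. In unirradiated cells the drug effect was -0.09 in E79Q and 0.37 in WT. This gave a three-way value of 0.52 (SE 0.11, adjusted p = 0.00884).

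AURKA, a spindle kinase, had 0.41 (SE 0.09, adjusted p = 0.021), CCNB1 (cyclin B1) 0.40 (SE 0.10, adjusted p = 0.0313) and BIRC5 (survivin) 0.46 (SE 0.11, adjusted p = 0.034). AURKA lost its call without untreated WT replicate 1, CB-839 E79Q replicate 3 or RT + CB-839 WT replicate 2, with an adjusted p of up to 0.0558. CCNB1 and BIRC5 each lost it in 13 of 24 fits without 1 library, with an adjusted p of up to 0.0788 without RT WT replicate 1 for CCNB1 and 0.0836 without CB-839 E79Q replicate 2 for BIRC5. DNA replication genes had no edgeR call among 30 tested, with 4 at an unadjusted p under 0.05, 1 called by DESeq2 and 0 by limma-voom, and a median of 0.07.

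Cholesterol and fatty acid genes were called higher in 2 of 30 (6.67%, against 0.326% of all genes). The list median was 0.21, with 24 of 30 above 0. SREBF1, the transcription factor that drives fatty acid synthesis, had 52.3, 56.6 and 52 CPM in RT + CB-839 E79Q libraries, 87.3, 83.8 and 93.4 in RT, 46.2, 44.1 and 45 in CB-839 and 138, 133 and 134 in untreated ones. WT libraries had 99.95, 85 and 102 CPM with RT + CB-839, 148, 146 and 146 with RT, 132, 132 and 139 with CB-839 and 244, 233 and 229 untreated. CB-839 lowered it in every setting, with a log2 fold change of -0.72 with radiation and -1.58 without it in E79Q cells, and of -0.61 and -0.80 in WT cells. Its three-way value was 0.68 (SE 0.12, adjusted p = 0.00255).

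SCD, the desaturase that makes oleate, had 0.51 (SE 0.09, adjusted p = 0.00203). Its sign depended on the scale: the same contrast of group means in CPM was -23.4, and it averaged 573 ± 19.9 CPM in untreated E79Q cells and 1298 ± 9.53 in untreated WT cells. The signs of OTUD1, ELF3, VSIR and HIST1H2AC were also negative in CPM (-4.63, -6.02, -5.62 and -0.169). On the log2 scale OTUD1, a deubiquitinase, had 1.18 (SE 0.20, adjusted p = 0.00158), ELF3, an epithelial transcription factor, 1.09 (SE 0.20, adjusted p = 0.00308), VSIR (VISTA), an immune checkpoint protein, 0.80 (SE 0.16, adjusted p = 0.00788), and HIST1H2AC 0.96 (SE 0.24, adjusted p = 0.0375). HIST1H2AC lost its call in 17 of 24 fits without 1 library, with an adjusted p of up to 0.0894 without CB-839 E79Q replicate 2. It also lost the call in 5 other settings, limma-voom among them.

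The other largest positive values were those of INKA1 with 1.55, RAB7B with 1.27, DPF3 with 1.20, PPAN with 1.14, ZNF488 with 0.95, CD24 with 0.88, RPL26 with 0.87 and DNER with 0.82. Their adjusted p-values (edgeR) ran from 0.00133 in RAB7B to 0.0428 in RPL26. RAB7B, a small GTPase of endosome transport, had 7.1, 6.47 and 7.04 CPM in RT + CB-839 E79Q libraries, 5.85, 6.12 and 6.29 in RT, 10.2, 9.35 and 8.44 in CB-839 and 16.9, 15.8 and 17 in untreated ones. The WT libraries had 10.1, 7.98 and 8.06 CPM with RT + CB-839, 8.15, 8.28 and 8.49 with RT, 15.7, 18.8 and 18.5 with CB-839 and 13.1, 13.8 and 15 untreated. The drug lowered it in unirradiated E79Q cells and raised it in unirradiated WT cells, with no overlap.

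Leaving out single libraries ended some of these calls. INKA1 lost its call without untreated E79Q replicate 1, RT WT replicate 1, RT WT replicate 2 or RT E79Q replicate 3, with an adjusted p of up to 0.0598. PPAN lost it in 13 of 24 such fits, with an adjusted p of up to 0.079 without RT WT replicate 1, and RPL26 in 18, with up to 0.1 without RT E79Q replicate 1. RPL26 encodes a ribosomal protein with near-identical pseudogenes, so its counts are uncertain. HSPA8, the constitutive cytosolic chaperone, was the 1 called heat shock gene of 14 (7.14%, against 1.1% of all genes), with 0.37 (SE 0.08, adjusted p = 0.0125).

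In 13 of the 34 lists, with 232 genes in all, edgeR called no member at an adjusted p under 0.05. Of these genes 40 had an unadjusted p under 0.05, DESeq2 called 6 and limma-voom 0. The lists included double-strand break repair (28 tested, median -0.09), interferon-stimulated genes (23, -0.27), antigen presentation (21, -0.12), YAP targets (15, -0.03), the nuclear respiratory chain (30, 0.20) and the TCA cycle (25, 0.13). Mitochondrially encoded genes (13 tested) had a median of -0.36, with 12 below 0, and a highest member of MT-ND3 at 0.39. The nuclear respiratory chain had 29 of 30 members above 0, against a median of -0.03 over all tested genes. Its E79Q interaction was called higher in 8 of 30, against 7.83% of all tested genes. The number of E79Q interaction calls over all genes moved with single libraries, and this was not examined for the list. A p that misses the threshold does not show that these genes behaved alike in the genotypes, given a median standard error of 0.24.

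**Figure D4:**
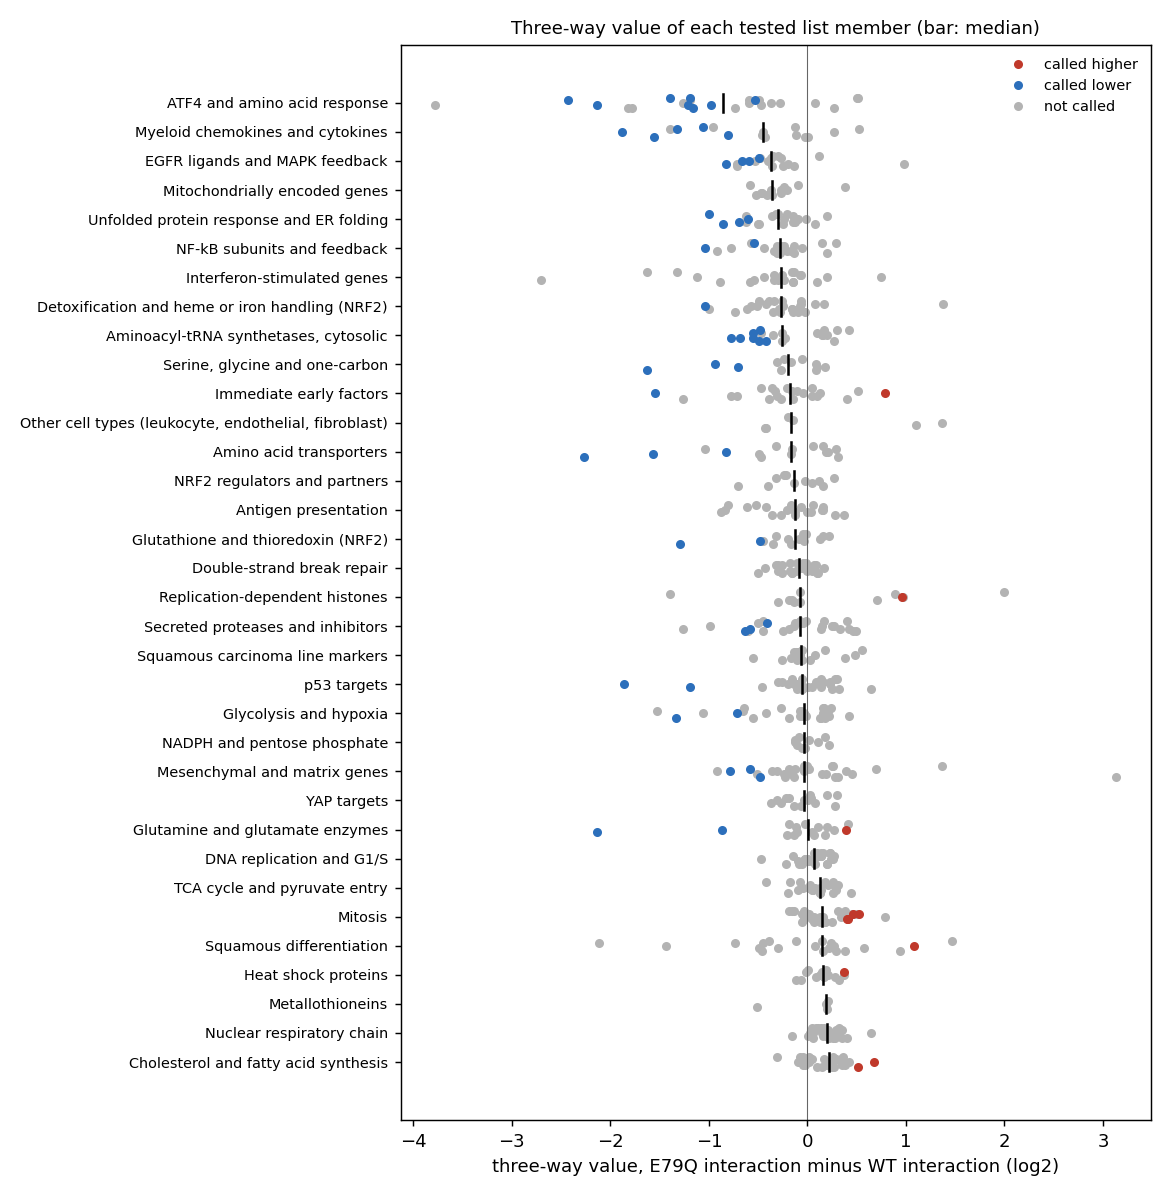
Three-way value (x axis, log2, E79Q interaction minus WT interaction) of each tested member of the 34 lists, which are ordered by their median (black bar). Blue points were called lower, red points higher and grey points not called. The ATF4 list has the lowest median, at -0.86, and the cholesterol and fatty acid list the highest, at 0.21.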

How the data were processed

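RNA was sequenced from 24 SAS libraries in 8 groups of 3. The authors deposited whole-number read counts per Ensembl gene with a gene length in base pairs, which was used only in the trend correction. STAR, HTSeq and GRCh38 are named per the submitters' processing notes; versions and the strand setting were not given in the sources used here. Groups came from the titles and labels. Of 58735 genes, 15956 passed edgeR's filterByExpr over the 8 groups. edgeR 4.0.16 (R 4.3.3) fitted 1 mean per group with TMM factors and quasi-likelihood dispersions (16 residual degrees of freedom, common biological variation 7.19%), with Benjamini-Hochberg adjustment over all tested genes and a threshold of 0.05. Fold changes are log2 values from this fit. Alternatives were DESeq2 1.42.0, limma 3.58.1 with voom, other scaling factors and filters, GC and length trends removed by lowess, leaving out libraries, and a replicate block. The scripts were tested on simulated data with known changes in the RT + CB-839 E79Q group. There, 23.9% of 1.5-fold, 41.8% of 2-fold and 71.2% of 4-fold changes were called, so many true changes were missed. Replicates differed beyond sampling noise (chi-square per degree of freedom at least 2.24).

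Named genes were the 12 largest values each way among called protein-coding genes with a mean log2 CPM of at least 1, in each of 34 lists the 2 called members of smallest p each way, and a fixed set of NRF2, ATF4, p53 and cytokine genes; where a list had no call, its 2 members of highest expression were taken. Other called list members are named too, a choice made after their values were seen, and of the highest-expressed members of lists with no call few values are printed. The contrast, members and lists were chosen with earlier results of these data known. What the replicate numbers pair is not given, so the main fit did not pair the samples. Promoters came from RefSeq (GRCh38.p14). Coordinates of genes are those of the deposited table. A few genes of the lists are not reported here by name, though they count in the list totals.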

Additional observations from a re-analysis of the deposited data

Results flagged for a closer look

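The radiation by CB-839 interaction differed between E79Q and WT cells, by the test of the three-way value itself, in the named genes below. The test was edgeR's quasi-likelihood test with Benjamini-Hochberg adjustment over all tested genes, and each value is the E79Q interaction minus the WT interaction (log2). No test for outlying single libraries was run on groups of 3. Among ATF4 targets and amino acid genes, the difference was -2.43 in CHAC1, -0.98 in TRIB3, -1.19 in SESN2, -1.22 in DDIT4, -1.17 in STC2, -1.39 in GDF15, -0.53 in ATF4, -2.14 in ASNS, -0.93 in PSAT1, -0.71 in PHGDH, -1.63 in ALDH1L2, -2.26 in SLC6A9, -0.82 in SLC1A5, -1.56 in SLC1A4 and -0.86 in GPT2. The 1 amino acid gene called higher was GLUL, at 0.39. Among tRNA synthetases it was -0.77 in CARS, -0.68 in GARS, -0.56 in WARS, -0.55 in MARS, -0.49 in SARS, -0.48 in YARS and -0.42 in AARS. Among genes of the endoplasmic reticulum it was -0.69 in HSPA5, -1.0 in HERPUD1, -0.86 in XBP1 and -0.61 in EDEM1. Among NRF2, p53 and hypoxia genes it was -1.29 in SLC7A11, -0.48 in GCLM, -1.03 in ABCC3, -1.19 in CDKN1A, -1.86 in BBC3, -1.33 in NDRG1 and -0.71 in VEGFA. Among cytokines and NF-kB genes it was -1.06 in CXCL1, -1.88 in CXCL3, -1.32 in CXCL8, -1.56 in CCL20, -0.80 in IL1A, -1.04 in TNFAIP3 and -0.55 in ICAM1. Among growth factor, matrix and surface genes it was -0.83 in HBEGF, -0.59 in PHLDA1, -0.67 in SPRY4, -0.49 in ERRFI1, -0.63 in SERPINB2, -0.48 in LAMB3, -0.79 in LOX, -0.41 in MMP14, -1.55 in KLF4, -1.53 in CLDN7, -1.63 in SEL1L3 and -1.65 in F2RL2. Among cell division and lipid genes it was 0.52 in KIF20A, 0.41 in AURKA, 0.40 in CCNB1, 0.46 in BIRC5, 0.68 in SREBF1 and 0.51 in SCD. Among the other genes with a positive value it was 1.55 in INKA1, 1.27 in RAB7B, 1.20 in DPF3, 1.18 in OTUD1, 1.14 in PPAN, 1.09 in ELF3, 0.96 in HIST1H2AC, 0.95 in ZNF488, 0.88 in CD24, 0.87 in RPL26, 0.82 in DNER, 0.80 in VSIR, 0.79 in EGR1 and 0.37 in HSPA8.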

How the results depend on the processing

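The three-way contrast called 52 genes higher and 124 lower, and the interactions 2312 genes in E79Q cells and 641 in WT cells. The higher count was 139 with DESeq2, 91 with no filter on low counts, 293 with GC content and gene length trends removed and 128 without 4 libraries with GC-related deviation. The lower count was 221 with the trends removed and 222 without the 4 libraries. The E79Q count was 1459 without the 4 libraries, and the WT count 997 with no filter, 1153 with the trends removed and 1855 without the 4 libraries. Without single libraries the higher count ran from 31 to 122, the lower from 93 to 174, the E79Q count from 829 to 4289 and the WT count from 365 to 1766. The cause of these shifts was not tested. The remaining settings (DESeq2's size factors, upper-quartile factors, limma-voom and a filter of 1 CPM in 12 libraries) left all 4 counts within 1.5 times, and so did each setting for a count not given above. A similar count can hold different genes. With the trends removed, 2025 genes were called in E79Q cells, but only 1331 of the 2312 main calls were among them. In WT cells 531 of the 641 main calls were kept. With the replicate number as a block, 35 genes were higher and 110 lower, with 1883 in E79Q and 510 in WT. What the numbers pair is not given, and the main fit did not use them. Over 84 same-numbered pairs the correlation of deviations from the group means ran from -0.18 to 0.09. For 4 of 24 libraries, the mean correlation with libraries of other groups was highest for those of the same number. With groups of 3, these values cannot show that the samples were unpaired. Of the 74 named genes called, 53 kept the call in all 33 settings, 17 lost it without at least 1 library, and 4 lost it in another setting only: GCLM with GC and length trends removed, and SARS, EDEM1 and SPRY4 with no filter on low counts. Most of the 17 lost it in other settings too. These were 5 settings for HIST1H2AC, 4 for MMP14 and 3 for GLUL. AARS, SLC1A4, PPAN, RPL26, BIRC5 and CCNB1 lost it in 2 each, and YARS, ERRFI1, ICAM1, LOX and AURKA in 1 each. INKA1, IL1A and ATF4 lost it only without single libraries. On the CPM scale, 45 of the 52 higher and 122 of the 124 lower genes kept their sign. Among named genes the sign reversed for OTUD1 (-4.63 CPM), ELF3 (-6.02 CPM), HIST1H2AC (-0.169 CPM), VSIR (-5.62 CPM) and SCD (-23.4 CPM). This is the difference between a log scale and a linear scale of CPM, which is itself a share and not an absolute amount. Depth of 14285084 to 23640197 counts and 3 libraries a group limit the precision: the median standard error of a three-way value was 0.24, close to the median absolute value of 0.22.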

Other observations

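These genes were chosen after their values were seen, so no group is tested here and none stands for a theme. Among the lower genes outside the lists were PCK2, the mitochondrial enzyme that makes phosphoenolpyruvate (-1.18, adjusted p = 0.000174 by edgeR), TXNIP, an arrestin that restrains glucose uptake (-0.91, adjusted p = 0.00307), INHBA, a subunit of activin (-0.97, adjusted p = 0.00791), and TNFSF15, a cytokine of the TNF family (-1.41, adjusted p = 5.54e-05). INHBE, another activin subunit, had -3.49 (adjusted p = 0.0343) at a mean log2 CPM below 1.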
